A study of Rattus norvegicus and Bos taurus with 12 samples.

Results

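Matricellular proteins are secreted into the extracellular matrix but act mainly as signals to cells rather than as structural fibers. They bind integrins and other surface receptors, matrix molecules and growth factors, and in the heart they are known for low levels in the healthy adult and for induction during wound healing and fibrosis. The genes described here are 10 members of this class, chosen by name: periostin (Postn), thrombospondins 1 and 2 (Thbs1, Thbs2), tenascin-C (Tnc), SPARC (Sparc), osteopontin (Spp1) and 4 genes of the CCN family, Ctgf, Cyr61, Nov and Wisp1. Of the 10, 8 were among the 2115 genes listed for cardiac fibroblasts (Cfib), and 10 were among the 7052 genes listed for adult rat ventricular myocytes (ARVM). SPP1 and WISP1 were not among the listed Cfib genes, and the newer CCN symbols of the family gave 0 further matches in either table.

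RNA sequencing of 12 libraries was available, 3 per group. The Cfib were low-passage cultures from the right ventricle of neonatal calves, either control calves (CO) housed at the ambient altitude of Denver or calves that had developed pulmonary hypertension (PH) under reduced atmospheric pressure, and all had been kept in serum-free medium. The ARVM came from healthy adult Sprague Dawley rats and were either freshly isolated or kept for 7 days in conditioned media of PH Cfib (PH-CM). As treatment, the labels instead name serum from cows of low or high altitude, and the group names follow the study's own text. Media and time in culture differ together between the ARVM groups and cannot be told apart. The study's text describes the Cfib libraries as coming from 3 animals per group, while the labels name no animal for any library. The p-values thus measure the spread between libraries. In ARVM this spread may be technical, and for Cfib the labels alone do not settle it.

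Both deposited tables contain only genes that the authors had selected for a difference between the groups. Each p-value below is therefore adjusted over selected genes, and in 100% of the listed genes of either table the 3 libraries of one group lay entirely above the 3 of the other. The Cfib signal has been scaled both for gene length and for library, and its depth is unknown. ARVM values are normalized counts, that is reads divided by 1 size factor per library, and the listed genes held between 12122463 and 18842171 reads per library. Groups were compared with limma on log2(value + 1), p-values were adjusted by Benjamini-Hochberg and read at 0.05, and log2 fold changes are on that scale. The label of the Cfib can be checked only partly in a selected list. Listed were 3 of 11 fibroblast markers (COL1A2, TCF21 and FBLN1), 5 of 6 smooth muscle and myofibroblast markers, 3 of 11 macrophage markers (CD68, CD14 and FCGR1A), 0 of 13 cardiomyocyte markers and 0 of 7 endothelial markers, and a gene that is not listed is not thereby absent. Freshly isolated ARVM had high counts of cardiomyocyte markers, with a sum over 12 listed markers of at least 1743990 normalized counts in each library. In PH-CM ARVM the same sum was between 182296 and 222080, which is 0.114-fold in the means.

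The rat promoters of Postn, Ctgf and Cyr61 are shown because Postn had the highest log2 fold change of the 10 genes in both experiments (in ARVM not under every alternative, as given with its values), whereas Ctgf and Cyr61, paralogs that are both known targets of the YAP and TEAD transcription factors, changed unequally in both. Each window has 300 bases, 250 before and 50 after the transcription start of the gene in RefSeq (build GRCr8, which is not the build used for alignment), and 7 of the 10 genes had an entry. Capitals mark matches, on either strand, to the TEAD core motif GGAATG and to the TATA box motif TATAAA.

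Postn, chr2:140677811-140678110, plus strand: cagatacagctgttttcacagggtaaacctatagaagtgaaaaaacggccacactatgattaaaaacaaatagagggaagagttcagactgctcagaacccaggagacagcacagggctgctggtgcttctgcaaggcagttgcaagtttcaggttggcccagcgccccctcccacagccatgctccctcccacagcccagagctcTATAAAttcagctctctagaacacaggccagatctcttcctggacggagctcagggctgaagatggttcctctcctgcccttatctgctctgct
Ctgf, chr1:22624565-22624864, minus strand: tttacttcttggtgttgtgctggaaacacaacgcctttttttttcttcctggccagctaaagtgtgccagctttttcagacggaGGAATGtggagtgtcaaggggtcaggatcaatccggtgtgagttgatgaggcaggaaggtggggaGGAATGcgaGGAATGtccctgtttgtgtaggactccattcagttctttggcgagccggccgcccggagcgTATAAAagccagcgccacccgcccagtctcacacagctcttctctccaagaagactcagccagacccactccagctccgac
Cyr61, chr2:237225640-237225939, minus strand: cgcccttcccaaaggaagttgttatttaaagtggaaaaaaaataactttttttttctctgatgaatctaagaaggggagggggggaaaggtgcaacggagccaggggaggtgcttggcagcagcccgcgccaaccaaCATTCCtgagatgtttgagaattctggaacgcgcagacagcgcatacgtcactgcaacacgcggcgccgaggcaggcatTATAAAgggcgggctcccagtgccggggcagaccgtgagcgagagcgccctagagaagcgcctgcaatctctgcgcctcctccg

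The Ctgf window held the TEAD motif 3 times, beginning 166, 101 and 92 bases before the start, and the Cyr61 window held it 1 time, beginning 113 bases before the start. The Postn window held no match to it. Of the 7 windows, 4 held the motif (Thbs1 and Sparc besides these CCN genes), against 14.2% of the 33469 rat promoters of this length. The TATA box motif was present in 5 of the 7 windows, those of Postn, Tnc, Spp1, Ctgf and Cyr61, with a share of 14.2% among all promoters. It began 44, 31 and 34 bases before the start in Postn, Ctgf and Cyr61. In Tnc and Spp1 the letters TATAAA lay farther away, beginning 208 and 204 bases before the start. Variants of this motif were not searched, and the Tnc window holds the similar letters tatataa nearer to the start. The AP-1 motif TGANTCA (7.33% of all promoters) and the CArG box, the motif of serum response factor (1.64%), were found in 0 of the 7. These matches are letters in a window and were not tested as binding sites.

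In Cfib, all 8 listed matricellular genes were higher in PH than in CO calves and 0 were lower. With limma, 97.5% of all listed Cfib genes passed the threshold, 58.2% higher and 39.4% lower, so passing the threshold in either direction is near the background of this table. The median log2 fold change of the 8 genes was 1.69, against 0.33 over all listed genes, with a range from 0.80 for CYR61 to 3.66 for POSTN. A log2 fold change of at least 1 was reached by 7 of the 8, against 34.0% of all listed genes.

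Periostin, which binds collagen, promotes its cross-linking and signals through integrins, changed most. POSTN had values of 5.25, 11.9 and 6.19 in the CO libraries and of 99.7, 106 and 107 in the PH libraries. The lowest PH library was 8.37 times the highest CO library. The means were 7.78 ± 3.61 (SD, n = 3) and 104 ± 4.0, and the log2 fold change was 3.66 (SE 0.26, limma adjusted p = 3.89e-05). Its change ranked 19 of the 2115 listed genes, from the highest.

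The thrombospondins bind CD36 and CD47 and restrain angiogenesis, and thrombospondin 1 also activates latent TGF-β. THBS1 had values of 1047, 827 and 407 in CO Cfib and of 2306, 2321 and 2290 in PH Cfib. THBS2 had values of 21.1, 18.4 and 7.22 in CO Cfib and of 56.0, 62.1 and 54.8 in PH Cfib. In both genes CO Cfib 3 lay below the other CO libraries, while the PH libraries lay close together. The log2 fold changes were 1.70 (SE 0.33, limma adjusted p = 0.00290) for THBS1 and 1.94 (SE 0.36, limma adjusted p = 0.00226) for THBS2. Without CO Cfib 3 they were 1.31 (adjusted p = 6.47e-05) and 1.50 (adjusted p = 6.12e-06).

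Tenascin-C is a large modular glycoprotein of healing and developing tissue. TNC had values of 19.4, 18.8 and 7.72 in CO Cfib and of 32.1, 39.4 and 37.3 in PH Cfib, again with CO Cfib 3 lowest. Its log2 fold change was 1.29 (SE 0.33, limma adjusted p = 0.00821) and was 0.89 without CO Cfib 3 (adjusted p = 9.24e-05). SPARC, a collagen-binding glycoprotein that takes part in collagen assembly, was the most abundant of the 8 genes. It had values of 3552, 2728 and 2331 in CO Cfib and of 6264, 6124 and 6052 in PH Cfib, and its log2 fold change was 1.12 (SE 0.20, limma adjusted p = 0.00213).

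The CCN proteins share insulin-like growth factor binding protein, von Willebrand, thrombospondin and, in most members, cystine knot modules. CTGF, a mediator of fibrosis downstream of TGF-β, had values of 127, 137 and 140 in CO Cfib and of 475, 405 and 422 in PH Cfib, and its log2 fold change was 1.68 (SE 0.08, limma adjusted p = 1.08e-05). NOV, also known as CCN3, had values of 93.7, 89.3 and 79.2 in CO Cfib and of 400, 371 and 371 in PH Cfib, and its log2 fold change was 2.11 (SE 0.08, limma adjusted p = 4.59e-06). CYR61, an adhesive and angiogenic member, had the smallest change of the 8. Its values were 157, 157 and 187 in CO Cfib and 290, 293 and 287 in PH Cfib, and its log2 fold change was 0.80 (SE 0.09, limma adjusted p = 0.000225). In these 3 genes CO Cfib 3 did not stand apart to the same extent as in the thrombospondins.

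**Figure D1:**
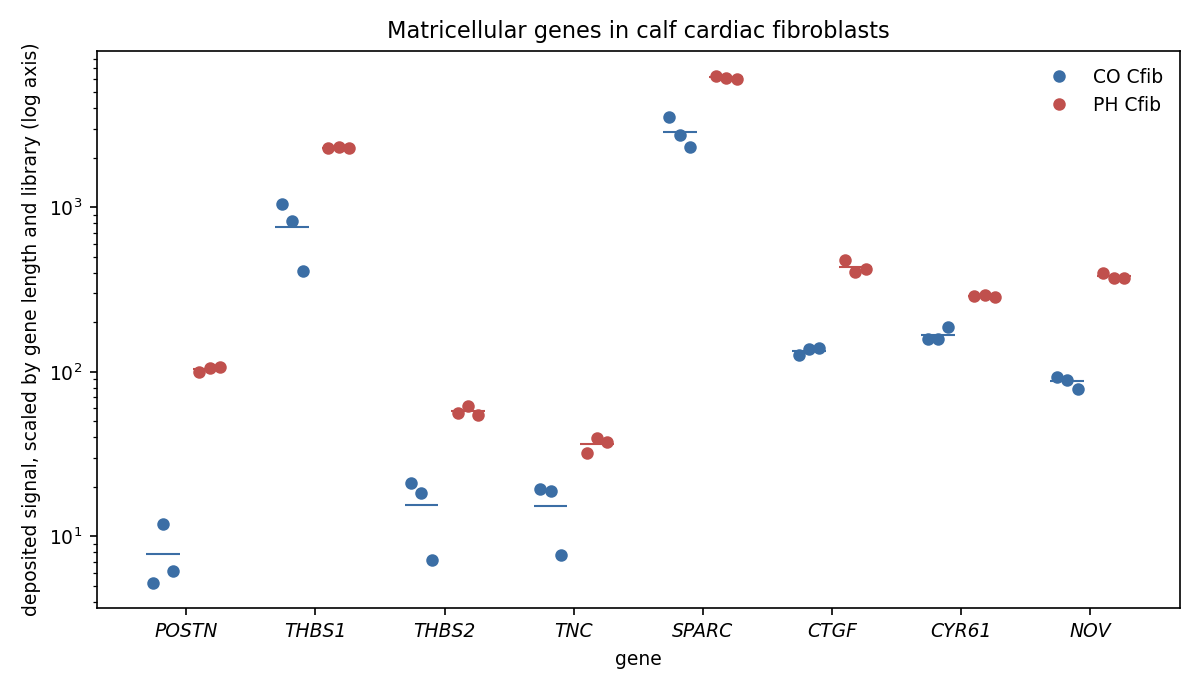
Deposited signal, scaled by gene length and library, of the 8 listed matricellular genes in each Cfib library (log axis; points are libraries, lines the mean of 3). The PH libraries lie above the CO libraries in each gene, and the gap is widest for POSTN, with means of 7.78 and 104.

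The methods of the study describe counts normalized by DESeq2, which takes no account of gene length, whereas the deposited Cfib values behave as length-scaled ones. The order of levels of different genes that follows rests on that reading of the values. In CO Cfib the order was SPARC, THBS1, CYR61, CTGF, NOV, THBS2, TNC and POSTN, where the ranges of the neighbors THBS2 and TNC overlapped, as did those of TNC and POSTN. In PH Cfib the order was SPARC, THBS1, CTGF, NOV, CYR61, POSTN, THBS2 and TNC, with no overlap between neighbors. POSTN thus went from place 8 to place 6, and CYR61 from place 3 to place 5, below CTGF and NOV. The highest gene, SPARC, was 2.67 times THBS1 in PH Cfib and 3.78 times in CO Cfib.

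The spread differed between the groups. The coefficient of variation of the 8 genes had a median of 32.2% in CO Cfib and of 4.18% in PH Cfib, and over all listed genes the medians were 13.7% and 5.01%. With the PH libraries averaged into 1 sample, which is then assumed to vary as the CO libraries do, 49.1% of all listed genes passed the threshold, 25.0% as higher. Of the 8 genes, 4 passed under this assumption, POSTN (adjusted p = 0.0104 from limma), CTGF (0.00456), NOV (0.00400) and CYR61 (0.0254). THBS1 (0.0759), THBS2 (0.0650), SPARC (0.0904) and TNC (0.112) did not, although their log2 fold changes remained within 0.01 of those above. Scaling the libraries by the median of ratios lowered the median log2 fold change of all listed genes from 0.33 to 0.07. After it, POSTN had a log2 fold change of 3.38, CYR61 of 0.51 and SPARC of 0.83, and all 8 genes passed as higher. With libraries scaled to an equal total over the listed genes, 51.2% of all listed genes were called higher and 40.3% lower, and all 8 genes again passed as higher.

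Markers of cell types moved with these genes in Cfib as well, where 58.2% of all listed genes were higher and 39.4% lower. The 3 listed fibroblast markers were higher in PH Cfib, and their sum went from between 1994 and 2651 to between 6315 and 6622, which is 2.87-fold in the means. Of the 5 listed smooth muscle and myofibroblast markers 4 were higher, among them ACTA2 with a log2 fold change of 1.23, and CNN1 was lower at −0.68. Of the 3 listed macrophage markers CD68 and FCGR1A were higher and CD14 was lower at −1.42. The sum of the fibroblast markers is mostly COL1A2, with means of 2149 of 2263 in CO Cfib and 6108 of 6505 in PH Cfib. A level relative to that sum is thus mainly a ratio to 1 collagen gene that was itself higher. Relative to the summed fibroblast markers, the mean of POSTN was 4.44-fold and that of NOV 1.50-fold as high in PH as in CO Cfib. That of SPARC was 0.747-fold, of TNC 0.824-fold and of CYR61 0.593-fold, and the 8 genes together were 0.838-fold. The part of these markers in the change of the matricellular genes was not tested.

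In ARVM, 9 of the 10 matricellular genes were higher in PH-CM than in freshly isolated cells, and 1, Cyr61, was lower in the values as deposited. With limma, 97.6% of all listed ARVM genes passed the threshold, 53.9% as higher and 43.7% as lower. The median log2 fold change of the 10 genes was 4.78, against 0.37 over all listed genes, and 9 reached an absolute log2 fold change of at least 1, against 48.3% of all listed genes. In bulk RNA, a change in the number of cells of a type and a change in RNA per cell cannot be told apart.

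Postn had 82.3, 55.7 and 64.0 normalized counts in freshly isolated ARVM (52, 52 and 62 reads) and 8697, 7132 and 9689 in PH-CM ARVM. The lowest PH-CM library was 86.7 times the highest freshly isolated library. The means were 67.3 ± 13.6 (SD, n = 3) and 8506 ± 1290, with a log2 fold change of 6.97 (SE 0.16, limma adjusted p = 8.87e-08). Its change ranked 49 of the 7052 listed genes. The lead of Postn over the other matricellular genes was lost with a single freshly isolated library left out, to Nov without library 4 (7.77 against 7.12), to Tnc without library 5 (7.27 against 6.84) and to Nov and Wisp1 without library 6 (6.99 and 7.30 against 6.94).

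Tnc had 12.7, 39.6 and 15.5 normalized counts in freshly isolated ARVM, from 8, 37 and 15 reads, and 1875, 2442 and 2717 in PH-CM ARVM. Its log2 fold change was 6.79 (SE 0.39, limma adjusted p = 2.58e-06), which lies inside the confidence interval of Postn, 6.58 to 7.35. Sparc was well detected in freshly isolated ARVM, with 10557, 10732 and 9087 normalized counts, and reached 50480, 40098 and 56073 in PH-CM ARVM. Its log2 fold change was 2.26 (SE 0.13, limma adjusted p = 2.62e-06). Spp1, which encodes osteopontin, a phosphoprotein of mineralized tissue that is also made by macrophages and stressed myocytes, had 214, 213 and 226 normalized counts in freshly isolated ARVM and 3278, 2670 and 4211 in PH-CM ARVM, with a log2 fold change of 3.93 (SE 0.15, limma adjusted p = 3.70e-07). Each of these genes had its groups apart, as did 100% of the listed ARVM genes, which had been selected for a difference between the groups.

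Thbs1 had 392, 583 and 517 normalized counts in freshly isolated ARVM and 9010, 9871 and 10743 in PH-CM ARVM, a log2 fold change of 4.32 (SE 0.14, limma adjusted p = 1.85e-07). Thbs2 had 69.6, 99.6 and 66.1 in freshly isolated ARVM and 2963, 2278 and 3743 in PH-CM ARVM, a log2 fold change of 5.23 (SE 0.22, limma adjusted p = 4.96e-07). The lowest PH-CM library was 15.5 times the highest freshly isolated one for Thbs1 and 22.9 times for Thbs2.

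**Figure D2:**
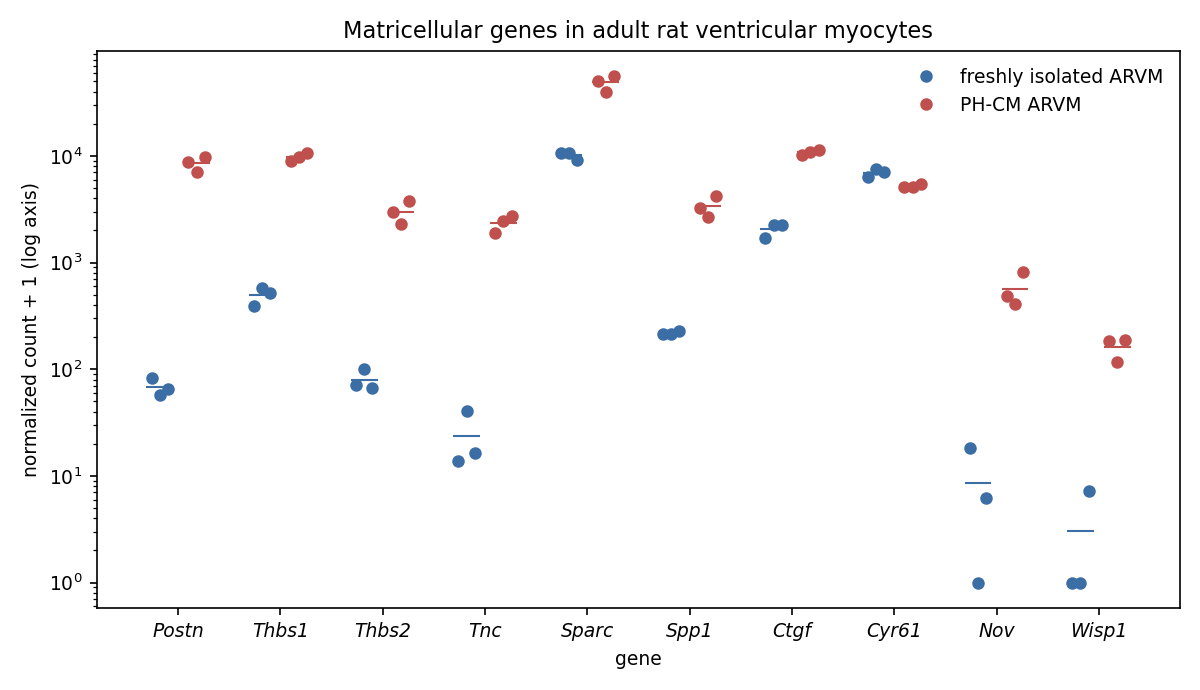
Normalized count + 1 of the 10 matricellular genes in each ARVM library (log axis; points are libraries, lines the mean of 3). PH-CM libraries lie above freshly isolated libraries in each gene but Cyr61, where they lie below, with means of 6964 and 5244 normalized counts (a difference that is lost when libraries are scaled to an equal total).

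The CCN genes of ARVM did not move together. Ctgf had 1704, 2273 and 2270 normalized counts in freshly isolated ARVM and 10189, 10816 and 11342 in PH-CM ARVM, a log2 fold change of 2.38 (SE 0.11, limma adjusted p = 9.88e-07). Cyr61 had 6289, 7585 and 7018 in freshly isolated ARVM and 5093, 5160 and 5480 in PH-CM ARVM. The Cyr61 libraries of the groups came close to each other, with the lowest freshly isolated library 1.15 times the highest PH-CM library. Its log2 fold change was −0.41 (SE 0.08, limma adjusted p = 0.00145), ranged from −0.48 to −0.34 when single libraries were left out, and was −0.43 both after rescaling by the median of ratios and with edgeR on the recovered reads. With each library scaled instead to the same total over the listed genes, an alternative added after the values were seen, its log2 fold change was 0.02 (SE 0.08, limma adjusted p = 0.848), and its shares of the listed counts overlapped, at 0.0328%, 0.0400% and 0.0379% in freshly isolated and 0.0357%, 0.0375% and 0.0384% in PH-CM ARVM. That scaling moved the median log2 fold change of all listed ARVM genes from 0.37 to 0.80 and called 56.9% of them higher and 22.5% lower, so the direction of Cyr61 depends on the scaling. The other 9 genes were called higher under it.

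Nov and Wisp1 were at the limit of detection in freshly isolated ARVM. Nov had 17.4, 0 and 5.17 normalized counts there, from 11, 0 and 5 reads, and 483, 404 and 818 in PH-CM ARVM. The library with 0 reads allows up to 3.21 normalized counts. Its log2 fold change was 6.81 (SE 0.94, limma adjusted p = 0.000272), 5.67 without freshly isolated ARVM 5 and 7.77 without freshly isolated ARVM 4, and ran from 5.10 at a pseudocount of 10 to 8.02 at 0.1. Wisp1, which encodes CCN4, had 0, 0 and 6.20 normalized counts in freshly isolated ARVM, where 0 reads allow up to 4.75 and 3.21, and 181, 115 and 185 in PH-CM ARVM. Its log2 fold change was 6.35 (SE 0.76, limma adjusted p = 0.000129), 7.30 without freshly isolated ARVM 6, and ran from 3.83 at a pseudocount of 10 to 8.62 at 0.1. The groups were fully apart in both genes, as they were in all listed genes, and the size of their changes is known only roughly.

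**Figure D3:**
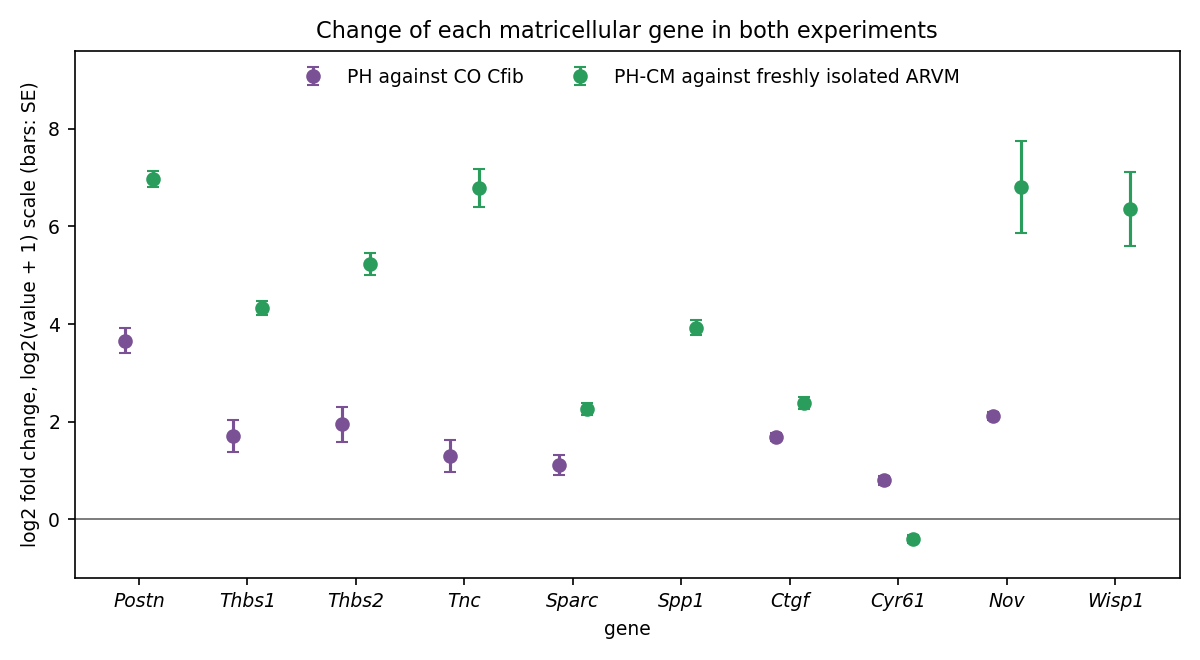
Log2 fold change of each matricellular gene on the log2(value + 1) scale in Cfib (PH against CO) and in ARVM (PH-CM against freshly isolated), with standard errors; Spp1 and Wisp1 have no Cfib point because they were not listed there. At this pseudocount Postn is highest in both experiments (3.66 and 6.97), and Cyr61 is lowest in both (0.80 and −0.41, the latter 0.02 with libraries scaled to an equal total).

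The ratio of a pair of paralogs within a library does not depend on the scaling of libraries. The ratio of Ctgf to Cyr61 was 0.808, 0.873 and 0.746 in CO Cfib and 1.63, 1.38 and 1.47 in PH Cfib, a difference of 0.89 on the log2 scale. In ARVM it was 0.271, 0.300 and 0.323 in freshly isolated cells and 2.0, 2.10 and 2.07 in PH-CM, a difference of 2.79. The ratio was thus higher in the treated libraries of both experiments, although Cyr61 itself was higher in PH Cfib and was not higher in the deposited values of PH-CM ARVM. The ratio of THBS1 to THBS2 was lower, at 49.7, 44.8 and 56.4 in CO Cfib and 41.2, 37.4 and 41.8 in PH Cfib, and at 5.64, 5.85 and 7.81 in freshly isolated and 3.04, 4.33 and 2.87 in PH-CM ARVM. The groups did not overlap in any of the 4 comparisons. For Ctgf to Cyr61 in ARVM this was fixed in advance. Every PH-CM library had more Ctgf and less Cyr61 than every freshly isolated library. Each of the 4 comparisons gave p = 0.1 in a two-sided exact permutation test, also after adjustment over the 4. That is the smallest p that 3 libraries against 3 allow, so the threshold of 0.05 could not be reached. ARVM values are not scaled by gene length, so a ratio there says which way the pair moved and not which gene is more abundant.

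**Figure D4:**
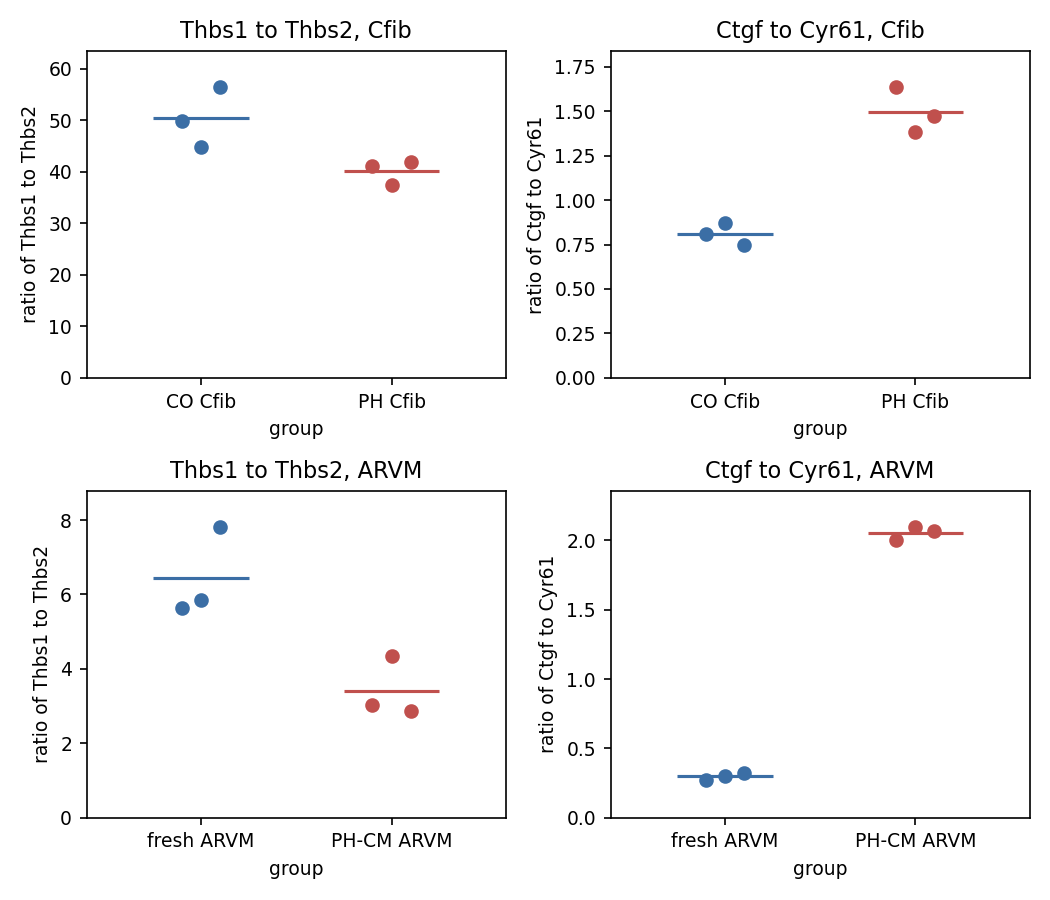
Ratio of Thbs1 to Thbs2 and of Ctgf to Cyr61 in each library (linear axes from 0; points are libraries, lines the mean of 3). The ratio of Ctgf to Cyr61 has means of 0.809 and 1.50 in CO and PH Cfib and of 0.298 and 2.06 in freshly isolated and PH-CM ARVM.

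Markers of other cells moved with these changes in ARVM, where 53.9% of all listed genes were higher and 43.7% lower. Of 11 fibroblast markers, 11 were higher in PH-CM ARVM, and their summed level went from between 4669 and 5840 normalized counts to between 95811 and 140675. Of the 11 macrophage markers 10 were listed and all 10 were higher, with sums from 278 to 327 in freshly isolated and from 7241 to 10945 in PH-CM ARVM. In freshly isolated ARVM the lowest fibroblast marker was Thy1, and the lowest macrophage markers were Ptprc and Aif1. Their group means were 1.79, 3.69 and 0.689 normalized counts there and 1856, 99.99 and 167 in PH-CM ARVM. Other markers had more counts in freshly isolated ARVM, such as Col3a1 with a mean of 749, Dcn with 530, and Csf1r and Adgre1 with 48.1 each. All 6 smooth muscle and myofibroblast markers were higher, 6 of 7 endothelial markers were lower and 11 of the 12 listed cardiomyocyte markers were lower, Myh7 being the exception. The part of these cells in the change of the matricellular genes was not tested.

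**Figure D5:**
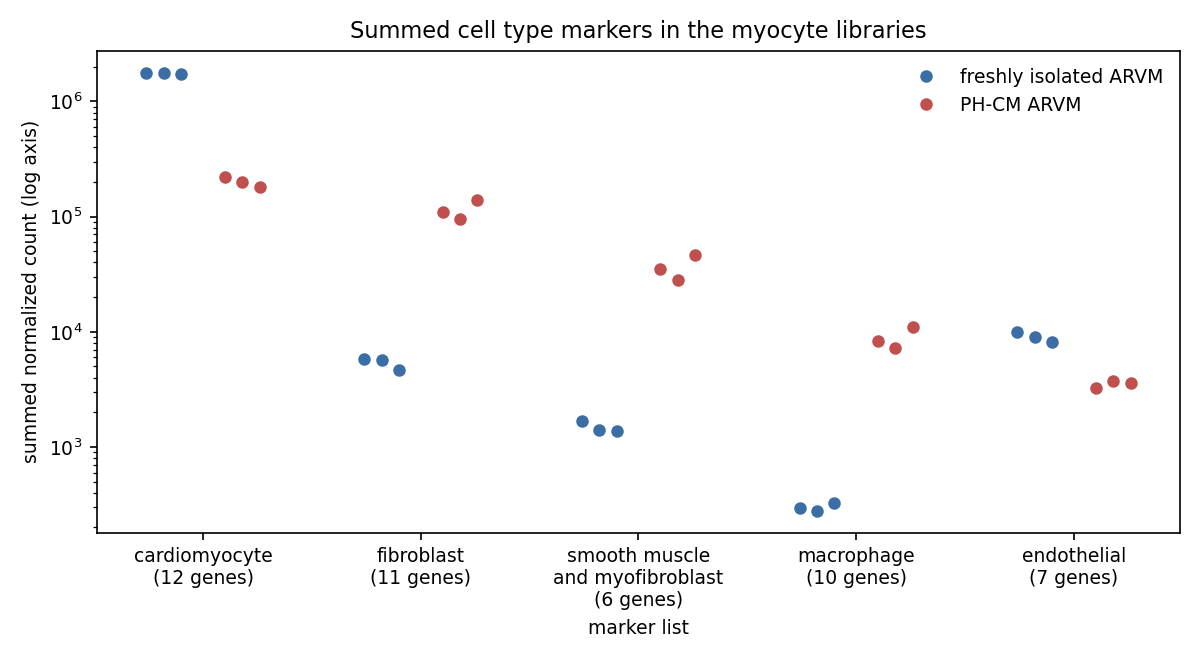
Summed normalized count of 5 lists of cell type markers in each ARVM library (log axis; points are libraries). The sums of fibroblast and macrophage markers are higher in each PH-CM library than in each freshly isolated library, and those of cardiomyocyte and endothelial markers are lower.

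Set against the summed fibroblast markers of the same library, the matricellular genes did not move alike. Postn was 1.41%, 0.984% and 1.37% of that sum in freshly isolated ARVM and 7.94%, 7.44% and 6.89% in PH-CM ARVM. Tnc went from a mean of 0.416% to 2.06% and Thbs2 from 1.46% to 2.58%. Thbs1 had means of 9.36% before and 8.72% after culture in PH-CM, and its libraries overlapped. Spp1 was at 4.09% and 2.92%. Nov (0.136% and 0.481%) and Wisp1 (0.0442% and 0.139%) were higher in PH-CM ARVM on this scale, from few reads in freshly isolated cells, and the Wisp1 libraries overlapped. Sparc (188% and 42.6%), Ctgf (39.3% and 9.55%) and Cyr61 (131% and 4.64%) were lower relative to these markers in PH-CM ARVM. The make-up of the sum differed between the groups. In freshly isolated ARVM, Vim gave a mean of 3158 of 5390 normalized counts. In PH-CM ARVM, Col3a1, Col1a2 and Col1a1 gave means of 42453, 19902 and 17090 of 115337. The shares in the groups thus rest largely on different markers. The sum is also made of genes that were themselves selected for the difference between the groups, so these shares are a description.

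The relatives of the matricellular genes that were not chosen by name were also counted. The counts of the 4 lists that follow are to be read against the whole tables, in which 58.2% of Cfib genes were higher and 39.4% lower, and 53.9% of ARVM genes were higher and 43.7% lower. Of 16 close paralogs, 6 were listed for Cfib, of which 5 were higher and 1 was lower, and the median of their log2 fold changes was 2.59. SPARCL1, the nearest relative of SPARC, went from 0.556 ± 0.174 (SD, n = 3) to 46.5 ± 1.07, with 4.94 as its log2 fold change (limma adjusted p = 8.03e-07). TNXB, a tenascin of collagen-rich tissue, had a log2 fold change of 4.17, SMOC2 of 2.84 and WISP2 of 2.33. TGFBI, the nearest relative of periostin, was lower, from 5.87 ± 0.849 to 2.40 ± 0.185, with −1.01 as its log2 fold change (limma adjusted p = 0.000246). In ARVM 8 of the 16 were listed, and all 8 were higher with a median of 3.22. Fstl1 had a log2 fold change of 4.61 and Wisp2 one of 3.87, and Tgfbi went from 748 to 1069 normalized counts, a log2 fold change of 0.51. Comp and Smoc1 were without reads in the freshly isolated libraries and had levels in PH-CM ARVM at least 47.4-fold and 18.99-fold higher than 3 reads over the group would give.

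Of 22 receptor genes of matricellular proteins, 6 were listed for Cfib, of which 5 were higher and 1 was lower, and the median of their log2 fold changes was 0.71. CD36, a thrombospondin receptor and fatty acid transporter, had a log2 fold change of 2.28, and ITGA9, the α subunit of a tenascin-C and osteopontin receptor, one of 2.24. SDC1 was lower, with a log2 fold change of −0.94. In ARVM 10 of 11 listed receptor genes were higher and 1 was lower (median 1.68, against 0.37 over all listed genes). Lrp1 had a log2 fold change of 3.94, Sdc4 of 2.95 and Sdc1 of 2.85, and Itga4, without a read in freshly isolated ARVM, was at least 59.96-fold higher. Cd36 was lower, from 7034 ± 1163 (SD, n = 3) to 2938 ± 156 normalized counts. CD36 and SDC1 thus had opposite directions in the 2 experiments, which differ in species and design and were not tested against each other.

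The collagen and fibronectin partners of periostin were higher wherever they were listed, 5 of 9 in Cfib where the median of their log2 fold changes was 1.58, and 8 of 9 in ARVM, where it was 6.23. In Cfib, LOX, the enzyme that cross-links collagen, had a log2 fold change of 2.47, FN1 of 1.81 and COL6A1 of 1.58. In ARVM, Col1a1 went from 63.5 ± 16.6 (SD, n = 3) to 17090 ± 3374 normalized counts, and Lox, Col1a2 and Pcolce had log2 fold changes of 7.65, 7.13 and 6.68. The direction of this list is that of the fibroblast markers, which share COL1A1, COL1A2 and COL3A1 with it.

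Of 22 regulators of the TGF-β, YAP/TAZ and SRF pathways, 6 were listed for Cfib and all 6 were higher, and the median of their log2 fold changes was 1.36. ANKRD1, a target of YAP, had a log2 fold change of 2.52, the ligand TGFB3 of 2.21, its receptor TGFBR1 of 1.44 and the inhibitor SMAD7 of 1.28. In ARVM 8 of 13 listed regulators were higher and 5 were lower (median 0.56), against 53.9% and 43.7% of all listed genes, and 8 were higher and 2 lower with libraries scaled to an equal total. Tgfb3 went from 179 ± 50.6 (SD, n = 3) to 3509 ± 602 normalized counts, Tead2 had a log2 fold change of 2.19 and Amotl2 of 1.87. Ankrd1 was lower, from 459905 ± 20921 to 126491 ± 17769 normalized counts, a log2 fold change of −1.87. Ankrd1, like Cyr61 a known target of YAP, was thus higher in PH Cfib and lower in PH-CM ARVM, also with libraries scaled to an equal total, which left no decrease of Cyr61. Ctgf and Amotl2 were higher in PH-CM ARVM. As with Ankrd1, 11 of the 12 listed cardiomyocyte markers were lower there, and the median over the 12 was −2.80. Myh7 alone was higher, at 0.49. Whether Ankrd1 moved with YAP or with the cardiomyocyte genes was not tested.

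The genes whose pattern over the 6 libraries lay nearest to that of Postn, by Euclidean distance of centered log2 values, were found in each experiment. In Cfib they were COL8A1, PRG4, CXCL13, MUSTN1 and COL11A1, at distances from 0.541 to 1.02, and the nearest matricellular gene was NOV at a distance of 2.06. COL8A1 and COL11A1 encode collagens and PRG4 encodes lubricin. CXCL13, PRG4 and MUSTN1 had means of 0.016, 0.428 and 1.42 in CO Cfib, so their likeness to POSTN depends on the pseudocount of 1. In ARVM the nearest were Scrn1, Melk, Lyz2, Slc6a12 and Ndst3, at distances from 0.431 to 0.595, and the nearest matricellular gene was Tnc at 1.63. Of these 5, only Lyz2, a lysozyme of macrophages, had reads in freshly isolated ARVM, from a mean of 40.8 to 6237 normalized counts, so for the other 4 the likeness depends on the pseudocount. Because the groups were apart in all listed genes, a small distance largely means a similar log2 fold change. The nearest genes had 3.10 to 3.75 in Cfib (POSTN 3.66) and 6.89 to 7.29 in ARVM (Postn 6.97). Joint regulation with Postn was not tested.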

How the data were processed

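The authors depleted ribosomal RNA, sequenced on a HiSeq4000, aligned reads to bosTau8 or rn6 with HISAT2 and StringTie (versions not given in the sources used here), normalized with DESeq2 and deposited genes with an expression value above 1 and p under 0.05. The deposited ARVM signal is a read count divided by a size factor, and 100% of values were whole reads within 0.01. The deposited Cfib signal is scaled by gene length and library, and whether it is FPKM or TPM was not settled. The matricellular genes, lists, tests and alternatives were chosen with earlier results of these data known. Each table was fitted whole with limma 3.58.1 (R 4.3.3, eBayes with trend, pseudocount 1). edgeR 4.0.16 and DESeq2 1.42.0 were run on recovered reads. Ratios were tested in Python 3.11.15 with scipy 1.17.1. The main limma fit of each table, and edgeR and DESeq2 for ARVM, were checked on simulated data. In these, 200 genes had a log2 fold change of 2 in either direction, a far smaller share than differs in the selected tables. limma recovered 197 of them for Cfib and 171 for ARVM, edgeR 196 and DESeq2 194. The other alternatives were not simulated. Genes named from a list are the called ones with the highest absolute log2 fold changes, up to 4 per list. TGFBI, Tgfbi, Cd36 in ARVM and Myh7 were named after their values were seen. Alternatives covered pseudocounts, a minimum mean, scaling, the trend, each library left out, a block for replicate number, averaged PH Cfib libraries and a minimum fold change, and, added after the values were seen, scaling to the total of the listed genes. Promoters were matched by symbol or synonym.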

Additional observations from a re-analysis of the deposited data

How the results depend on the processing

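Of 15 alternatives, 13 left 8 genes called higher in PH Cfib, 7 remained with a minimum log2 fold change of 1 (CYR61 dropped out) and 4 with the PH libraries averaged. In ARVM 9 genes were called higher under all 15, and Cyr61 was the 1 gene called lower under 13 of them. The number called lower in ARVM was 0 with a minimum log2 fold change of 1, since Cyr61 changed by less, and also 0 with each library scaled to the same total over the listed genes, where the log2 fold change of Cyr61 turned to 0.018. That scaling was added after seeing the data. No other direction of a single matricellular gene turned. Over all listed ARVM genes it gave 4010 higher and 1588 lower calls, against 3802 and 3080. With the replicate block, 8 genes were called higher in PH Cfib and 0 lower. Libraries of equal number had correlated deviations of 0.258, 0.0312 and 0.259, and since 1 of the 3 was under 0.1 the numbers were not taken to pair the libraries. No paired analysis was possible in ARVM because its groups share no replicate numbers. Over all listed Cfib genes, limma called 1230 higher and 833 lower, 840 and 869 after scaling by the median of ratios, and 1038 in all with the PH libraries averaged, where the lone PH sample is assumed to vary as the CO libraries do. Scaling by the median of ratios left fewer calls in the Cfib lists of regulators (4 of 6), receptors (5 of 6), smooth muscle markers (4 of 5) and macrophage markers (2 of 3). Over all listed ARVM genes, 6882 were called by limma, 6815 by edgeR and 6668 by DESeq2. Depth limits Nov and Wisp1 in freshly isolated ARVM, and is unknown for Cfib.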

Other observations

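Of the summed signal of all listed Cfib genes, the 8 matricellular genes made up a mean of 3.97% in CO and 8.88% in PH libraries. Sparc alone held 2.80% and 5.59%, and Thbs1 0.747% and 2.10%. In ARVM, counts are not scaled for gene length, and the 10 genes held 0.106% of the listed counts in freshly isolated and 0.658% in PH-CM libraries. Sparc accounted for 0.0536% and 0.346% of the listed counts, and Cyr61 for 0.0369% and 0.0372%, so on this scale its decrease in normalized counts is not seen.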
